A study of Mus musculus with 2 samples.

Results

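The ribosomal protein genes encode the proteins of the cytoplasmic ribosome. They were taken by symbol (Rpl or Rps followed by a number, and Rplp0, Rplp1, Rplp2 and Rpsa, without symbols holding -ps and without the Rps6 kinases). The rule found 87 of the 28000 features in the count matrices, 53 of the large subunit and 34 of the small subunit. By its symbol it also took in Rps19bp1, which encodes a protein that binds RPS19 and is not part of the ribosome, and Rpl6l, which GENCODE M21 annotates as a processed pseudogene. All other members are annotated as protein-coding.

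They were described in smooth muscle cells (SMCs) of the mouse thoracic aorta, in 2 droplet single-cell libraries, 1 per genotype. Both groups were male C57BL/6 mice that carried Myh11-CreERT2 and the mT/mG reporter, received tamoxifen at 1.5 weeks of age and were sampled at 24 weeks. Myh11-CreERT2 is a recombinase that tamoxifen activates in cells using the Myh11 promoter, mainly SMCs, and mT/mG turns on membrane eGFP in a recombined cell and its descendants. The control mice were Tsc1+/+, and the mice labelled KO were Tsc1fl/fl, so that Tsc1 deletion was tied to the same recombination in SMCs and any other cell using that promoter. Viable GFP+ cells were sorted before capture. How many animals each library pools is not stated in the labels used here. With 1 library per group, every comparison below is between 2 libraries: genotype, animal and library preparation cannot be told apart, and intervals cover counting error only.

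A ribosome joins a small subunit, which reads the messenger RNA, to a large subunit, which links amino acids, and each subunit is built in the nucleolus from ribosomal RNA and a full set of ribosomal proteins. The growth kinase complex mTORC1, which the Tsc1 and Tsc2 proteins restrain, promotes ribosome production and the translation of ribosomal protein mRNAs. Most of these mRNAs begin with a run of pyrimidines at the very 5′ end, the 5′ terminal oligopyrimidine (TOP) motif, through which LARP1 and mTORC1 regulate their translation. Counts of mRNA, as analysed here, do not measure translation.

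That motif would lie in the genome as a pyrimidine run at the start, so short windows around annotated starts are shown. They are those of members that later results turn on. The limit of 8 bases used below was chosen, and a run anywhere in the window was counted, so it does not define a TOP motif. Each window is the RefSeq sequence (GRCm38.p6) on the gene's strand, 20 bases before the annotated start and 10 after it, with the longest run of C and T in capitals. The first pair includes the member with the longest run among those shown and one with a short run.
Rpl4, chr9:64173367-64173396, + strand: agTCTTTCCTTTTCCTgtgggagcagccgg
Rps28, chr17:33824553-33824582, - strand: TCCTgggtaccgcgtgcggtctcgcgagag
Rps27, chr3:90213639-90213668, - strand: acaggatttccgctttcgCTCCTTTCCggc
Rpl38, chr11:114668560-114668589, + strand: ccggaagcggaagcctcgTTCTTTCCCCgt
Rps6, chr4:86857358-86857387, - strand: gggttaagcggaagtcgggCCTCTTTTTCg
Rps2, chr17:24720043-24720072, + strand: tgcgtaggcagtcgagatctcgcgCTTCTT
Rplp0, chr5:115559447-115559476, + strand: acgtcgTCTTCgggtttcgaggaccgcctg

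The runs were 14 bases long in Rpl4, 10 in Rpl38 and Rps6, 9 in Rps27, 6 in Rps2, 5 in Rplp0 and 4 in Rps28. Those of Rps2 and Rps28 touch an edge of the window and may be longer in the genome. RefSeq promoter sequences matched 66 of the 87 members, with 78 windows because some genes have several annotated starts. A run of at least 8 pyrimidines was in 29 of the 78 member windows (37.2%), against 4128 of 32851 windows of all genes (12.6%). The median longest run was 6 bases in member windows and 4 in all windows. The motif CTTTCC was in 40 of the 78 member promoter sequences on either strand, as written or as its reverse complement (51.3%), against 26.6% of all, over 250 bases before to 50 after the start. On the gene's strand and within the 30-base window it was in 11 member windows (14.1%) against 1.50% of all. The motif CTCTTT was in 42.3% of member sequences on either strand against 23.0%, and in 10.3% against 1.21% in the window. TATAAA, the sequence of the core promoter TATA box, was in 8.97% of member sequences on either strand against 13.6% of all sequences. On the gene's strand and within the window it was in 1 member window (1.28%) against 0.517% of all. The 2 pyrimidine motifs were searched separately and may overlap. Annotated starts can be several bases from the start used in these cells, so a window without a run says nothing of the mRNA's true end.

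A second set of sequences is shown because 3 related members, a gene, its retrocopy and a paralog, did not all go in the same direction. Rps27 encodes the small subunit protein eS27, Rps27rt is its intronless retrocopy, and Rps27l is a paralog with introns that is also a known target of p53. The coding sequences below come from GENCODE M21 (mm10). For Rps27l the 252-base form was taken to match the length of the others, and a form of 315 bases is also annotated. Capitals in Rps27l mark bases that differ from Rps27.
Rps27, chr3:90212728-90213615, - strand: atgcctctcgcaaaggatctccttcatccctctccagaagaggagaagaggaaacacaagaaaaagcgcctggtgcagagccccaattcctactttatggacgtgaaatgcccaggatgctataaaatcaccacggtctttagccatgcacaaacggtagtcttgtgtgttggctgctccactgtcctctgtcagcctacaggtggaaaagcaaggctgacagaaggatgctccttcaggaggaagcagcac
Rps27l, chr9:66946175-66949354, + strand: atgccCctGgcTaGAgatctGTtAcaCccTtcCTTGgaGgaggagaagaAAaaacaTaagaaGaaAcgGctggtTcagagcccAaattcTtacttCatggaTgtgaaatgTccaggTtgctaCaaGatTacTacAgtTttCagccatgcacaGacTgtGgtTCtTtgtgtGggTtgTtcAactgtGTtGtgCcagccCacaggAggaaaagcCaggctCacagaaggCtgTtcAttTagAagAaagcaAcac

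The Rps27rt coding sequence (chr9:114982456-114982707, - strand) was identical to that of Rps27 over all 252 bases, so reads within it cannot be told apart between these genes. Rps27l differed from Rps27 at 60 of 252 bases (76.2% identity), and the longest run of identical bases was 11. Its reads can therefore be separated from those of Rps27 within the coding sequence.

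After keeping cells with at least 5 eGFP UMIs (unique molecular identifiers, 1 per captured RNA molecule), at least 500 genes and at most 10% mitochondrial UMIs, 1692 of 2095 control cells and 1919 of 2097 KO cells remained, with 20011501 and 30778165 UMIs. Median depth per cell was 11665 UMIs in control and 15012 in KO, and median mitochondrial share was 4.77% and 5.73%. All 8 SMC markers were at 10 UMIs per 1000000 (CPM) or more in both libraries, and their summed level was 38726 CPM in control and 19088 CPM in KO. None of the 7 macrophage or 6 lymphocyte markers reached 10 CPM, with Adgre1 and Cd3e at 0 in both libraries. Of 6 fibroblast markers, 3 reached it in control and 5 in KO, with sums of 1455 and 1662 CPM. Of 3 neutrophil markers, 0 reached it in control and 2 in KO (8.20 and 23.6 CPM summed). All 3 pericyte markers reached it in both libraries, with sums of 836 and 364 CPM. The part of these cell types in the results was not tested. Tsc1 itself had 191 UMIs in control and 263 in KO (9.54 and 8.55 CPM, ratio 0.895, interval 0.740 to 1.08), and since tags near a transcript's end can lie outside a deleted exon, its count does not check the genotype labels. The libraries shared 16 cell barcodes.

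Ribosomal protein mRNAs made up a smaller share of the KO library. They held 2955839 of the control UMIs (14.8%) and 3726702 of the KO UMIs (12.1%), so the summed level was 147707 CPM in control and 121083 CPM in KO. The KO to control ratio was 0.820 (95% counting interval 0.818 to 0.821), a level 18.03% lower. The large subunit sum was 8.59% of UMIs in control and 7.01% in KO (ratio 0.816, 0.814 to 0.817). For the small subunit the sums were 6.18% and 5.10% (ratio 0.826, 0.824 to 0.828). Both subunits were thus lower by nearly the same factor in the KO library. A share is relative: with mitochondrial genes and the 10 most abundant genes left out of the totals, the ratio was 0.876.

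The lower share did not come with fewer ribosomal protein UMIs per cell. The median cell held 1765.5 ribosomal protein UMIs in control and 1810 in KO, a ratio of medians of 1.03. Outside these genes, the median cell held 9886.5 UMIs in control and 13153 in KO, a ratio of 1.33. The median total per cell was 1.29 times as high in KO. Raw UMIs per cell also follow the capture and sequencing depth of each library, so these counts do not compare mRNA per cell. Over single cells the share ran from 5.57% to 27.3% in control (quartiles 13.4% and 16.2%, median 14.7%) and from 3.53% to 34.2% in KO (quartiles 10.6% and 13.6%, median 12.02%). The distributions overlapped, yet 86.5% of KO cells lay below the control median and 72.2% below the control lower quartile. With every cell thinned to 5000 UMIs, which left out 90 control and 17 KO shallower cells, the medians were 14.7% and 12.02%.

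**Figure D1:**
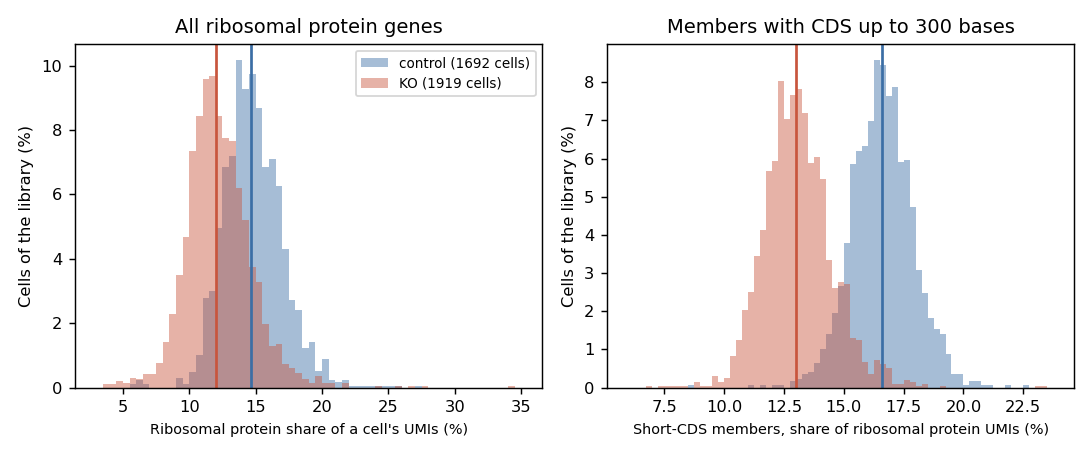
Ribosomal protein share of UMIs (percent, horizontal axis) over single eGFP-positive cells of the control and KO libraries. The KO cells center on 12.02% and the control cells on 14.7%, with overlapping ranges.

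The KO median was lower in each of 6 depth ranges. In cells with 8000 to 12000 UMIs the median share was 15.1% in 617 control cells and 12.6% in 373 KO cells. In cells with 12000 to 16000 UMIs it was 14.7% in 574 cells and 12.1% in 587. In cells with 16000 to 24000 UMIs it was 14.0% in 199 cells and 11.7% in 604. Within each library the median was lower in the deepest cells, at 13.9% in control and 11.3% in KO above 24000 UMIs, and Spearman's rho over cells was -0.094 in control and -0.15 in KO, with UMIs shared by both axes.

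The contractile state of the cells, measured as the share of UMIs from 14 smooth muscle contractile genes, also differed: the median was 5.86% in control and 2.69% in KO. In cells with a contractile share of 4 to 6% the median ribosomal protein share was 14.9% in 644 control cells and 11.6% in 377 KO cells. In cells with 2 to 4% it was 14.4% in 238 control cells and 12.3% in 648 KO cells. Among KO cells it was 12.5% in the 367 cells with a contractile share under 1% and 11.1% in the 143 cells with 6 to 8%. KO cells with the least contractile mRNA thus had the higher ribosomal protein shares of that library, still below the control medians. Spearman's rho of the 2 shares over cells was -0.029 in control and -0.17 in KO, with total UMIs shared by both axes. In cells with 4 to 6% mitochondrial UMIs the median was 14.7% in 1124 control cells and 11.96% in 808 KO cells.

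Single members differed by unequal amounts. Of the 87 members, 82 had at least 50 CPM in 1 library or the other and were counted as measured. The ratio was below 1 for 76 of the 82 and at or above 1 for 6, with counting intervals wholly below 1 for 74, wholly above 1 for 5 and spanning 1 for 3. The median log2 ratio was -0.26 over measured members (a ratio of 0.834) and -0.036 over all 3020 measured genes (0.975). At 1.5-fold, 9 members were lower and 1 was higher, where 14.2% of all measured genes were lower and 12.1% higher. Read against that background, the share of members lower at 1.5-fold was no higher than that of all genes. At 1.2-fold, 41 of 82 members were lower and 1 was higher, where 29.8% of all measured genes were lower and 26.2% higher. The count of 41 was 25 without mitochondrial and the 10 most abundant genes in the totals, and 66 with no eGFP minimum. A fold of 1.2 may lie within differences between animals, which 1 library per group cannot show.

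**Figure D2:**
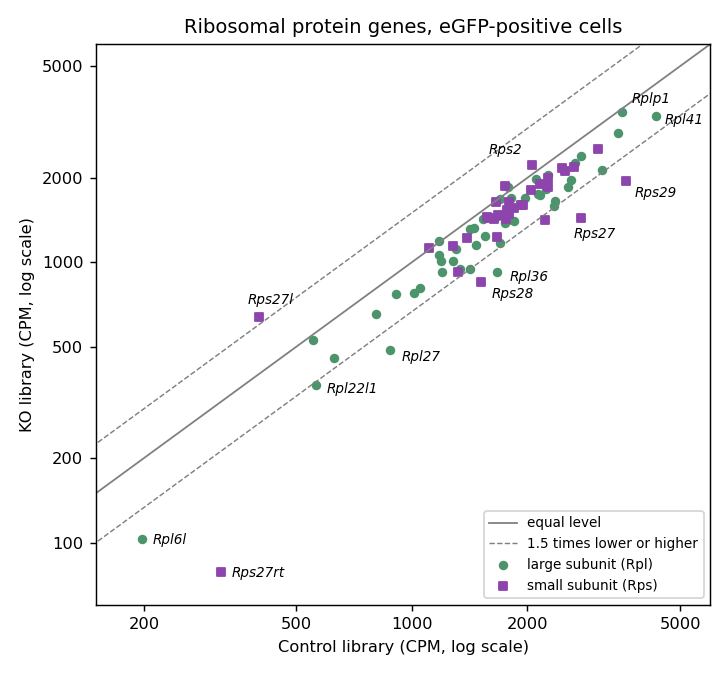
Level of each measured member in the control library (horizontal axis) and the KO library (vertical axis), both in CPM on log scales, for large subunit (circles) and small subunit (squares) genes. Most points lie just under the line of equal level, Rps27rt and Rps27 lie far below it, and Rps27l lies above the upper 1.5-fold line.

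Among large subunit genes, 49 of 53 were measured and their median ratio was 0.807, with 4 lower at 1.5-fold, 28 lower at 1.2-fold and 2 at or above 1. The 4 were Rpl27, Rpl36, Rpl22l1 and the annotated pseudogene Rpl6l. Rpl36 (chromosome 17, 56613416 to 56614243) had 1665 CPM in control and 925 CPM in KO, a ratio of 0.555 (0.547 to 0.564). Rpl27 (chromosome 11, 101442298 to 101445529) had 879 and 487 CPM, a ratio of 0.554 (0.542 to 0.566). Both encode core structural proteins of the large subunit and were at nearly the same ratio. Rpl4 (chromosome 9, 64173375 to 64178666), whose protein lines the tunnel through which the new chain leaves, had 1413 and 948 CPM, and its ratio of 0.671 (0.660 to 0.682) fell just outside the 1.5-fold limit. Rpl22l1, at 0.646, lay just inside it.

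The smallest large subunit proteins were also lower. Rpl41 (chromosome 10, 128548114 to 128549305), a very short peptide that bridges the subunits, had 4325 CPM in control and 3309 CPM in KO (ratio 0.765, 0.758 to 0.772). Rpl39, another exit tunnel protein, had 2362 and 1659 CPM (ratio 0.702). Rpl38, known for a role in translating Hox mRNAs in the mouse embryo, had 1700 and 1171 CPM (ratio 0.689). Rpl37a had 3130 and 2134 CPM (ratio 0.682). The large subunit genes at or above equal level were Rplp0 and Rpl11. Rpl11, which binds the p53 regulator MDM2 when ribosome assembly fails, had 1174 and 1193 CPM (ratio 1.02, 1.0 to 1.03). Rpl32 (0.991, 0.978 to 1.005) was at equal level within counting error.

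The stalk of the large subunit, which recruits elongation factors, is built from Rplp0, Rplp1 and Rplp2. Rplp0 (chromosome 5, 115559467 to 115563727), the stalk base, had 1783 CPM in control and 1857 CPM in KO, a ratio of 1.04 (1.03 to 1.06). Rplp1 had 3532 and 3420 CPM (0.968, 0.959 to 0.977). Rplp2 had 2132 and 1745 CPM (0.818, 0.808 to 0.829). The 3 stalk genes thus differed from each other, with Rplp2 near the median of all members and the others near equal level.

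Among small subunit genes, 33 of 34 were measured and the median ratio was 0.869, with 5 lower and 1 higher at 1.5-fold and 13 lower at 1.2-fold. The 5 were Rps27rt, Rps27, Rps29, Rps28 and Rps21. Rps29 (chromosome 12, 69157722 to 69159186), a zinc-binding protein of the subunit head, had 3612 CPM in control and 1955 CPM in KO, a ratio of 0.541 (0.535 to 0.547). Rps28 (chromosome 17, 33819027 to 33824562) had 1509 and 849 CPM (0.562, 0.553 to 0.572). Rps21 (chromosome 2, 180257377 to 180258445) had 2225 and 1412 CPM (0.635, 0.627 to 0.643).

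Rps6 and the highest small subunit ratios stood apart from these. Rps6 (chromosome 4, 86854660 to 86857412), whose protein is the target of S6 kinase downstream of mTORC1, had 1795 CPM in control and 1489 CPM in KO (0.829, 0.818 to 0.841), close to the median of all members. Rps19 (chromosome 7, 24884371 to 24889806), mutated in Diamond-Blackfan anemia, had 1753 and 1874 CPM (1.07, 1.06 to 1.08). Rps2 (chromosome 17, 24718116 to 24721929) had 2056 and 2224 CPM (1.08, 1.07 to 1.09). Rpsa, also known as a laminin receptor, had 1105 and 1121 CPM (1.01, 0.997 to 1.03). These ratios above 1 are small, and those of Rps19, Rplp0, Rpl11 and Rpsa were below 1 (0.905, 0.924, 0.893 and 0.889) when cells without eGFP were kept, while that of Rps2 was 1.05.

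The 5 members with the most UMIs were Rpl41, Rps29, Rplp1, Rpl10 and Rpl37a in control and Rplp1, Rpl41, Rpl10, Rps23 and Rpl13 in KO. Rpl10, whose joining completes the large subunit, had 3438 CPM in control and 2878 CPM in KO (0.837). Rps23 had 2537 CPM and Rpl13 2399 CPM in KO. Rps29 and Rpl37a left the list of 5 in KO because their own ratios were low.

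Paralogs and their parent genes differed by unequal amounts, most of all in the Rps27 family. Rps27 (chromosome 3, 90212522 to 90213651) had 2759 CPM in control and 1438 CPM in KO (ratio 0.521, 0.515 to 0.528). Its retrocopy Rps27rt (chromosome 9, 114982366 to 114982739) had 317 and 78.8 CPM (6349 and 2425 UMIs), a ratio of 0.248 (0.237 to 0.260). Because the coding sequences are the same, the pair was also summed, giving 3076 and 1517 CPM (0.493, 0.487 to 0.499). Rps27l (chromosome 9, 66946086 to 66949516) went the other way, with 399 CPM in control and 639 CPM in KO (7980 and 19671 UMIs), a ratio of 1.60 (1.56 to 1.65). It was the single member at 50 CPM or more past 1.5-fold on the high side. The family as a whole had 3475 and 2156 CPM (0.620), so the higher level of Rps27l was smaller in CPM than the lower level of the other 2 genes.

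Among the other pairs with measured genes, ratios were lower or near equal. Rpl22l1 (chromosome 3, 28805436 to 28807424) had 563 CPM in control and 364 CPM in KO (0.646, 0.629 to 0.663), against 910 and 773 CPM (0.849) for its parent Rpl22. Rpl36al had 551 and 529 CPM (0.960), against 1194 and 920 CPM (0.771) for Rpl36a. Rpl6l (chromosome 10, 111125851 to 111126721) had 198 and 103 CPM (0.523, 0.499 to 0.548), against 1546 and 1240 CPM (0.802) for Rpl6. As Rpl6l is an annotated pseudogene, reads given to it can stem from Rpl6 mRNA, and the pair summed had a ratio of 0.771. Thus Rpl22l1 and Rpl6l, like Rps27rt above, had lower ratios than their parents, and Rpl36al and Rps27l had higher ones. Rpl7l1 had 46.7 and 42.0 CPM (0.899), under the level set for measured genes, and Rpl7 had a ratio of 0.791. Germline or muscle paralogs were near absent: Rpl39l had 2 and 19 UMIs (ratio 6.18, 1.49 to 54.7), Rpl3l had 1 and 3, and Rpl10l had 0 in both libraries, which by a limit of 3 counts allows up to 0.150 CPM in control and 0.0975 CPM in KO. Rps19bp1 had 29.1 and 37.8 CPM (ratio 1.30, 1.18 to 1.44).

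Members were grouped by their longest annotated coding sequence, and the shortest group had the lowest median ratio. Rps27l, at 315 bases by that rule, was not in this group. By its 252-base form shown above it would be, at a ratio of 1.60. The 10 measured members with at most 300 coding bases, Rpl41, Rpl39, Rps29, Rps28, Rpl38, Rps21, Rps27, Rps27rt, Rpl37a and Rpl37, had a median ratio of 0.658 and a range of 0.248 to 0.765, and 5 of them were lower at 1.5-fold. The median ratio was 0.799 for the 18 members of 300 to 400 bases, 0.874 for the 21 of 400 to 500, 0.865 for the 18 of 500 to 700 and 0.837 for the 14 above 700. Ratios thus differed by length below 400 bases and little above it. Summed, the 10 short members had 24485 CPM in control and 15856 CPM in KO (0.648, 0.645 to 0.650), and the other 77 had 123222 and 105227 CPM (0.854, 0.853 to 0.855). The short members made up 16.6% of ribosomal protein UMIs in control and 13.1% in KO. This within-ribosome share does not depend on the other genes in the library.

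Other short genes did not share the pattern. Genes outside the members with at most 300 coding bases had a median ratio of 1.01 (130 genes), and those above 700 bases 0.949 (1959 genes). Across genes, Spearman's rho of log2 ratio with coding length was 0.39 over 81 members and -0.13 over 2893 other genes, where genes are not independent replicates. Per cell, the short members' share of ribosomal protein UMIs had a median of 16.6% in control (8.55% to 22.5%) and 13.0% in KO (6.82% to 23.3%). Of KO cells, 98.2% lay below the control median and 86.0% below the 5th percentile of control cells. The libraries separated further by this share than by the total ribosomal protein share. The length groups were chosen after seeing the data, so this wider separation follows from that choice and is not separate support. Cells of a library are not replicates.

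**Figure D3:**
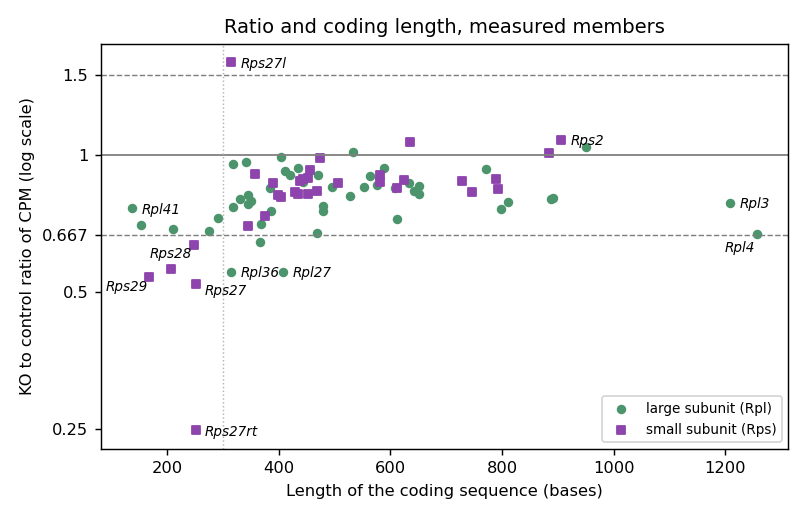
KO to control ratio of CPM (vertical axis, log scale) against coding sequence length in bases (horizontal axis) for measured members, with dashed lines at 1.5-fold in either direction and a dotted line at 300 bases. All 10 members left of the dotted line lie at or below 0.765, while longer members are spread from 0.554 to 1.60. Lengths are those of the longest annotated coding sequence, 315 bases for Rps27l.

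Ribosomal protein genes have many processed copies in the mouse genome, and a read matching several genes may be dropped or assigned among them. Members had a median of 4 near-identical genes (at least 95% identity over 100 bases within the last 300 bases of the transcript) and up to 57, and 92.7% of 2893 other genes had none. The 22 members with none had a median ratio of 0.849, close to the 0.853 of the 20 members with 1 to 4 copies, the 0.802 of the 24 with 5 to 9 and the 0.829 of the 15 with 10 or more. The medians differed little between these groups. At 1.5-fold, 0 of the 22 members with none were lower, against 9 of all 82 measured members. Among other genes with none, 376 of 2681 were lower. So few members passed that fold that this count was not read as a result. A value of 0 near-identical genes rests on the end of a single annotated transcript and does not show that a gene has no copy. Rpl6 and Rpl13a had 0, although Rpl6l and Rpl13a-ps1 are named as their copies. Of the 9 members lower at 1.5-fold, 6 had 5 to 9 such genes (Rps27rt, Rps27, Rps29, Rpl27, Rpl36 and Rps28), Rpl22l1 had 2, Rps21 had 1, and Rpl6l had no value. The levels of all 9 are uncertain for that reason. Rpl37a and Rpl37, 2 short members with no such gene, had ratios of 0.682 and 0.727.

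Symbols holding -ps, which name further processed copies, were not members. The 16 such symbols summed to 1951 CPM in control and 965 CPM in KO (0.495, 0.487 to 0.502). Rps12-ps3 had 576 and 295 CPM (0.513) against 0.888 for Rps12, and Rpl23a-ps3 had 559 and 272 CPM (0.487) against 0.676 for Rpl23a. Rpl36-ps3 had 71.5 and 20.4 CPM (0.286) against 0.555 for Rpl36. In all 14 pairs with at least 10 UMIs of the copy in each library the copy's ratio was below that of its parent, with medians of 0.493 and 0.800. Reads given to a copy can stem from the parent mRNA, so these levels are uncertain.

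The same members were read in cells without eGFP, which the main counts leave out. There were 330 such control cells and 12 such KO cells with 0 eGFP UMIs, at median depths of 3750 and 4657.5 UMIs. Their ribosomal protein share was far higher, with medians of 33.7% and 34.6%. They held leukocyte RNA: Lyz2 was at 11871 CPM in control and 3654 CPM in KO, Cd79a at 475 and 200 CPM and Nkg7 at 637 and 18.2 CPM. Their makeup thus differed between libraries, and Xist, 1418 and 68 UMIs, was present in these cells of mice labelled male. The summed members had a ratio of 0.903 (0.889 to 0.916) in these cells. Rps27 had 7005 and 4036 CPM (0.576, 0.502 to 0.658), Rps29 0.746 (0.661 to 0.840), Rps28 0.703 (0.579 to 0.845) and Rpl27 0.603 (0.423 to 0.836). Short members together had 0.791 (0.756 to 0.827) and longer members 0.919 (0.905 to 0.934). Symbols holding -ps had 0.606 (0.449 to 0.799).

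Rps27rt (0.338, 0.124 to 0.743) and Rpl36 (0.753, 0.614 to 0.915) also had intervals below 1 in these cells. Rps21 (0.857, 0.708 to 1.03) and Rpl6l (0.408, 0.110 to 1.06) had intervals that span 1. So did Rps19 (1.08), Rpsa (0.991), Rpl11 (0.949) and Rplp0 (0.926). Rps2 (1.21, 1.05 to 1.39) had an interval above 1. For Rps27l the ratio was 1.36 (0.894 to 1.99), an interval that spans 1. Only 28 KO and 494 control UMIs stood behind it. With 12 KO cells these values carry the counting error of few cells, and cell makeup and library cannot be told apart in them.

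**Figure D4:**
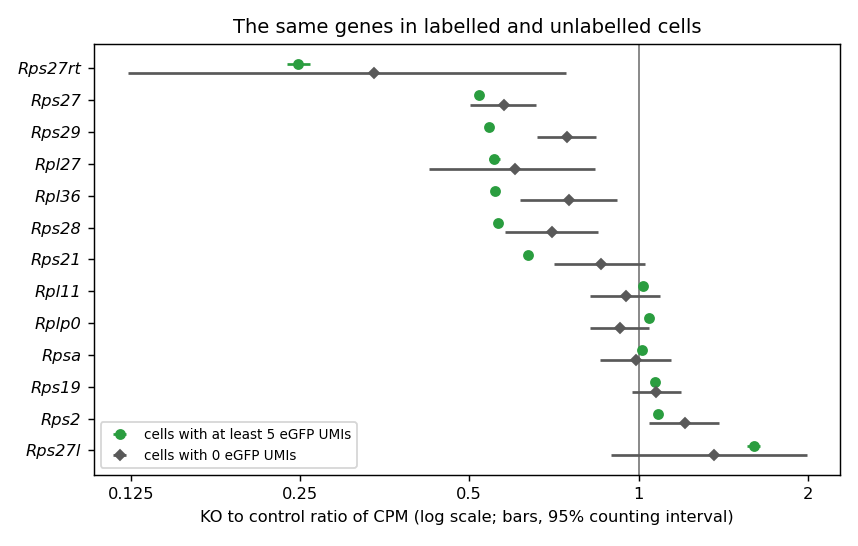
KO to control ratio of CPM with 95% counting intervals for single members, in cells with at least 5 eGFP UMIs and in cells with 0 eGFP UMIs. Intervals are wider in the cells with 0 eGFP UMIs, where Rps27 is at 0.576 and Rps27l at 1.36.

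The authors' deposited table of mean levels per cluster and library, in counts per 10000, gave the members by cluster. In the 4 control columns with at least 30 eGFP per 10000, members summed to 15.2%, 15.0%, 15.8% and 13.5% of the mean counts in clusters 0, 1, 2 and 4. In the 5 KO columns with as much eGFP they summed to 11.2%, 12.7%, 12.3%, 12.2% and 13.2% in clusters 0 to 4. The groups did not overlap, and the gap was smallest in cluster 4. Columns with less eGFP had far higher sums in both libraries, 29.1% to 47.0% in control and 35.1% and 44.0% in KO. Cluster columns of 1 library are not replicates, and KO cluster 1 also held Lyz2, a macrophage marker, at 15.8 per 10000.

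Of the 86 members listed in the authors' deposited table, 84 were at 0.5 per 10000 or more, and for 28 of these every KO column was below every control column, where 4.38% of genes in the table were so. For 0 members was every KO column above every control column (3.13% of genes), and 56 overlapped. The 28 include all 9 members past 1.5-fold on the low side, and also Rpl4, Rpl41, Rpl38 and Rplp2. Rps27 was at 27.6 to 35.3 per 10000 over control columns and 14.3 to 19.8 over KO columns in that table. Over these 9 columns, the widest ranges among members above 0 in each of them, as highest to lowest, were Rps27rt with 6.01-fold, Rpl7l1 with 4.06-fold and Rpl6l with 2.99-fold. Rps19bp1 was listed at 0 in 1 KO column and has no fold, with a highest value of 0.930. Rps27l was at 3.70 to 4.37 over control columns, and at 2.38 in KO cluster 4 and 4.74 to 7.004 in KO clusters 0 to 3, so its higher level was not in cluster 4. The narrowest ranges were those of Rpl28 (1.18-fold), Rpl8 (1.204-fold) and Rpl26 (1.23-fold) over the same columns.

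**Figure D5:**
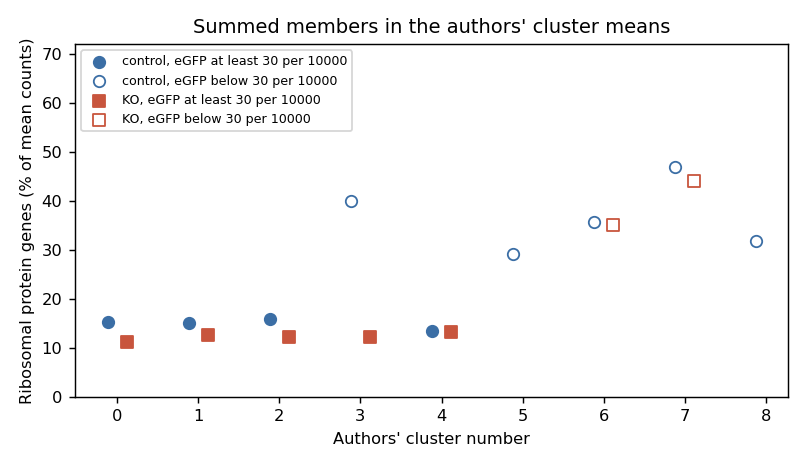
Summed members as a percent of mean counts in the authors' deposited cluster columns, by cluster number, for control (circles) and KO (squares), filled where eGFP is at least 30 per 10000. Filled KO points lie at 11.2% to 13.2% and filled control points at 13.5% to 15.8%.

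Genes that share the TOP motif or the translation machinery were read from lists of their own. Of 23 elongation factors and other TOP genes, 21 were measured, with a median ratio of 0.757. At 1.2-fold 14 were lower, where 29.8% of all measured genes were lower. At 1.5-fold 4 were lower and 0 higher, where 14.2% of all measured genes were lower and 12.1% higher. The 4 were Nap1l1 (0.506), Vim, an intermediate filament gene at 6713 CPM in control and 3666 CPM in KO (0.546), Eef1a1, the factor that delivers aminoacyl-tRNA, at 5869 and 3906 CPM (0.666), and Eif3e (0.666). Eef2, the translocation factor, had 1064 and 778 CPM (0.732). Fau, which encodes the small subunit protein eS30 without an Rps symbol, had 1798 and 1430 CPM (0.795). Tpt1 had 3471 and 4010 CPM (1.16) and Eef1g 545 and 609 CPM (1.12), the 2 ratios of this list above 1. The median of the list lay below the 0.834 of the ribosomal protein genes and the 0.975 of all measured genes.

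Lists for other steps had medians of 0.847 to 0.940. Their counts at 1.5-fold stand beside 14.2% of all measured genes lower and 12.1% higher. Of 35 initiation factors, 27 were measured, with a median ratio of 0.916, 2 lower and 1 higher at 1.5-fold. The helicase gene Eif4a2 had 382 and 208 CPM (0.545), Eif4a3 had 0.665, and Eif1a had 45.2 and 85.1 CPM (1.88). Of 68 ribosome biogenesis factors 12 were measured, with a median ratio of 0.940 and none past 1.5-fold in either direction. Ncl, nucleolin, had 294 and 200 CPM (0.679), Nop56 had 0.722, and Nhp2 had 41.9 and 60.0 CPM (1.43) and Myc 1.36. Of 27 mTORC1 and translation regulators 7 were measured, with a median ratio of 0.847 and 2 lower at 1.5-fold. Cnbp had 0.658, Rheb, the GTPase that activates mTORC1, had 352 and 233 CPM (0.662), and Akt1s1, an mTORC1 inhibitor, had 50.4 and 73.9 CPM (1.46). Eif4ebp1, which blocks cap-dependent initiation until mTORC1 phosphorylates it, had 84.4 and 96.7 CPM (1.15).

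The 77 protein genes of the mitochondrial ribosome summed to 4666 CPM in control and 4984 CPM in KO (1.07, 1.06 to 1.08). Of these, 42 were measured, with a median ratio of 1.04. At 1.5-fold 2 were higher and 0 lower, where 12.1% of all measured genes were higher and 14.2% lower. Mrps6 had 76.8 and 227 CPM (2.95) and Mrpl34 had 67.3 and 111 CPM (1.65), while Mrps28 was lowest at 0.789. The 13 genes of the mitochondrial genome held 4.85% of UMIs in control and 5.69% in KO (1.17). Of the 42 measured genes 28 were at or above equal level and 14 below it. Intervals were wholly above 1 for 19, wholly below 1 for 9 and spanned 1 for 14.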

How the data were processed

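Raw UMI counts per gene and cell were deposited by the authors for 1 library per genotype. Per the submitters' processing notes, the tools were Seurat 2.0, Cell Ranger and bcl2fastq, with the build mm10. The sources used here state no version for the last 2 tools, no read length and no rule for calling cells. The authors' deposited averages (other unit) list 16415 genes in 16 columns, and were taken as mean counts per 10000 from the column sums. The members, gene lists, tests and alternatives were chosen with earlier results of these data known, and the coding-length groups, near-identical copies, motifs, cells with 0 eGFP UMIs and the limit of 30 eGFP per 10000 were chosen after seeing the data.

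UMIs were summed per gene over kept cells and scaled to CPM of all UMIs in those cells. No test was possible with 1 library per group. Ratios carry exact conditional binomial 95% intervals, and no pseudocount was used. The count minimum was 50 CPM in 1 library. The ratio and interval code was tested on simulated data. Named members were the 6 largest and 6 smallest ratios, the 5 most abundant per library, all past 1.5-fold, the stalk genes, Rps6, Rpsa, paralogs with their parents, members at 0 UMIs, Rps19bp1, the 3 widest and narrowest over the authors' columns, and up to 3 at either end of each list. Rpl32, Rpl37, Rpl38, Rpl4, Fau, Eef2 and the -ps examples were added after their values were seen. Scrublet, run per library in scanpy 1.11.5, called 6 control and 6 KO cells as doublets, which were kept in the main counts. Coding sequences came from GENCODE M21, near-identical genes from BLAST 2.17.0, and promoter windows from RefSeq (GRCm38.p6). Python 3.11.15, numpy 2.4.6, scipy 1.17.1, pandas 2.3.3 and matplotlib 3.10.9 were used. Alternatives changed the eGFP, mitochondrial, gene and level limits, doublets, scaling, thinning and depth.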

Additional observations from a re-analysis of the deposited data

How the results depend on the processing

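The summed ratio (0.820) stayed below 1 in every alternative run. It was 0.818 with an eGFP minimum of 1 UMI, 0.757 with no eGFP minimum, 0.827 at a mitochondrial limit of 5%, 0.876 without mitochondrial and the 10 most abundant genes, 0.841 with median-of-ratios scaling, 0.825 both as a mean of per-cell shares and after thinning to 5000 UMIs, and 0.828 in cells with 8000 to 16000 UMIs. Chosen after seeing the data, adding -ps symbols gave 0.816 and leaving out short coding sequences 0.854. The median log2 ratio (-0.26) was -0.40 with no eGFP minimum, -0.16 without mitochondrial and the most abundant genes, -0.23 with median-of-ratios scaling and -0.24 both without short coding sequences and among members with no near-identical gene. Leaving out those abundant genes moved the median of all genes by 0.12 on the log2 scale, and the member median minus that of all genes was -0.24 there and -0.23 as reported. The median per-cell share was then 17.4% in control and 15.3% in KO. Counts at 1.5-fold were 3 higher with no minimum level (1 reported) and 16 lower with no eGFP minimum (9 reported). Counts at 1.2-fold were 2 higher at 10 CPM and 4 with no minimum (1 reported), and 66 lower with no eGFP minimum and 25 without mitochondrial and the most abundant genes (41 reported). The cells without eGFP are mostly control cells with high member shares. Of 360 alternative values of named ratios, 140 lay outside the counting interval of the reported ratio. Of the same 360, 352 stayed on the same side of 1. Those that crossed were Rpl11, Rplp0, Rps19 and Rpsa with no eGFP minimum, Rpl26 (1.003), Rpl36al (1.03) and Rplp1 (1.03) without the abundant genes, and Rpl36al (1.002) at the mitochondrial limit of 5%. Median-of-ratios scaling gives no per-cell share and was not run for it. No paired analysis was possible because each group has 1 library and no replicate numbers. Differences between animals could not be measured. Depth settings also moved some abundant members outside their counting intervals. After thinning, Rps27 was at 0.529 (0.521 reported) and Rpl4 at 0.684 (0.671 reported). In cells with 8000 to 16000 UMIs, Rps27l was at 1.51 (1.60 reported).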
